A study of Mus musculus with 12 samples.

Results

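Chemokine genes of bone marrow cells were followed over 4 mouse genotypes, in cells enriched for CD71, the transferrin receptor carried by red cell precursors. They were Cxcl9, Cxcl10, Cxcl12, Cxcl16, Ccl2, Ccl3, Ccl4, Ccl5, Ccl6 and Ccl9, which made up 10 of the 19935 genes that probe sets with a single gene symbol measured. Each was read by 1 probe set. The mice were males of strain C57BL/6J aged 10 to 12 weeks, with 3 mice and 3 arrays in each of 4 groups. CD70TG*Ifng-/- mice carried a CD70 transgene and lacked the gene for interferon-γ. CD70TG mice carried the transgene with interferon-γ intact, Ifng-/- mice lacked interferon-γ without the transgene, and WT mice had neither change. The transgenic source was labelled clone F13 in CD70TG mice, a single line, and the promoter that drives the transgene was not given in the sources used here. The cells came from the crushed bones of the hind legs and were collected with a biotin-coupled CD71 antibody and magnetic beads, so other marrow cells could remain among them. CD70 is the ligand of CD27, a costimulatory receptor of T cells, and the design asks how the transgene changes expression in these cells and which part of that change needs interferon-γ.

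Chemokines are small secreted proteins that guide cell movement through G protein-coupled receptors on the responding cell. Cxcl9 and Cxcl10 are classical products of interferon-γ signalling and attract activated T and NK cells through CXCR3. Ccl3, Ccl4, Ccl5, Ccl6 and Ccl9 are CC chemokines made mainly by myeloid cells or, for Ccl5, by effector lymphocytes as well, and Ccl6 and Ccl9 are rodent genes whose proteins bind CCR1. Ccl2 recruits monocytes through CCR2, Cxcl16 is made as a membrane-bound ligand of CXCR6, and Cxcl12 is the stromal factor that holds blood-forming cells in the marrow through CXCR4.

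In the mouse annotation of RefSeq (GRCm38.p6), Cxcl9 and Cxcl10 lay on chromosome 5 and Cxcl12 on chromosome 6. The other 7 lay on chromosome 11, where Ccl5, Ccl9, Ccl6, Ccl3 and Ccl4 followed each other in that order and the annotated spans of Ccl3 and Ccl4 overlapped. Promoter windows of 250 bases before the gene start were matched in RefSeq for 6 of the 10 genes (Cxcl9, Cxcl10, Cxcl12, Ccl3, Ccl6 and Ccl9) and were not matched for Cxcl16, Ccl2, Ccl4 and Ccl5. The 4 windows below belong to the pair of genes that were higher in CD70TG mice and to the neighbouring pair Ccl6 and Ccl9, which were lower in all transgenic arrays than in the arrays of mice without the transgene and the same Ifng genotype. They are read 5′ to 3′ on the minus strand, at chr5:92328080-92328329 for Cxcl9, chr5:92348890-92349139 for Cxcl10, chr11:83593088-83593337 for Ccl6 and chr11:83578637-83578886 for Ccl9. Capitals mark the longest run of bases that a window shares with the window of another gene of the set.
Cxcl9: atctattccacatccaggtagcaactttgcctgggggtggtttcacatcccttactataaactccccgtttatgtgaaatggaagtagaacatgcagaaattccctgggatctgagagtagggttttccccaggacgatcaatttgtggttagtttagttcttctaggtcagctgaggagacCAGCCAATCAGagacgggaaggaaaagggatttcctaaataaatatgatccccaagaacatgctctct
Cxcl10: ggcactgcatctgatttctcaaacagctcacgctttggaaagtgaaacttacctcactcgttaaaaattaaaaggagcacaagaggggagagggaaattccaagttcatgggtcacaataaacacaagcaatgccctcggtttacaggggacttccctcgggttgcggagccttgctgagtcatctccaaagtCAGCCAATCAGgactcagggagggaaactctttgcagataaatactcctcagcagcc
Ccl6: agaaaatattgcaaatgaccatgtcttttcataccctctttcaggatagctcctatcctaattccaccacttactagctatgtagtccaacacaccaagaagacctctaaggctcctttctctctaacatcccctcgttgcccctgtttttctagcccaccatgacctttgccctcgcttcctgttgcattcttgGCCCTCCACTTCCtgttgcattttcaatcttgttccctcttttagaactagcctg
Ccl9: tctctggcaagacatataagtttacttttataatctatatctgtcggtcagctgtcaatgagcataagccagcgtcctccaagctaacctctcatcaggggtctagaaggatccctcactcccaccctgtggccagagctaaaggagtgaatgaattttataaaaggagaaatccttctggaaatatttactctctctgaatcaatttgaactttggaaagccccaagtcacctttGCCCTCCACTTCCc
The longest shared run of any of the 15 pairs of windows was gccctccacttcc, of 13 bases, between Ccl6 and Ccl9. It lay 55 to 43 bases before the start of Ccl6 and 14 to 2 bases before that of Ccl9. The next was cagccaatcag, of 11 bases, between Cxcl9 and Cxcl10, at 68 to 58 bases before the start of Cxcl9 and 57 to 47 before that of Cxcl10. The remaining 13 pairs shared runs of 7 to 10 bases. A shared run describes letters only and carries no test.

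Values are log2 intensities relative to each gene's own median over the 12 arrays, as deposited, so they compare arrays for a gene and not genes with each other. The medians of the arrays lay between -0.021 and 0.027. The rounding of the deposited numbers still told whether a gene's original log2 level was under or over 8, and all 10 chemokine genes fell in the class of 4 to 8, whereas 14.4% of all genes fell in the higher class. All 8 measured markers of red cell precursors, which include Tfrc, the gene of CD71, fell in the higher class, against 1 of 15 macrophage markers (C1qb). So did 4 of 12 markers of neutrophils and precursors (S100a8, S100a9, Ltf and Ngp) and 2 of 7 monocyte markers (Ctss and Lyz2). Of 8 markers of eosinophils, basophils and mast cells 1 did (Prg2). The probe sets of the altered genes did not separate the groups by the test: Ifng was -0.10 ± 0.09 log2 (SE) in Ifng-/- against WT mice (adjusted p = 0.632), and Cd70 was 0.26 ± 0.12 in CD70TG against WT mice (adjusted p = 0.18) and 0.39 ± 0.12 in CD70TG*Ifng-/- against Ifng-/- mice (adjusted p = 0.135). No label says which exons were deleted, so this Ifng value checks little. In CD70TG against WT mice Ifng was -0.05 ± 0.09 log2 (adjusted p = 0.783), with groups that overlapped. In both transgene comparisons every transgenic array was higher for Cd70. Adjusted p-values throughout are from limma, two-sided, with Benjamini-Hochberg adjustment over 19935 genes, and a gene is said to have risen or fallen where this value was under 0.05. The spread of a gene over the 12 arrays differed widely within the set. Cxcl9, Cxcl10, Ccl3, Ccl5, Ccl6 and Ccl9 had SDs of 0.451 to 0.807, at the 98.3 to 99.6 percentile of all genes, whereas Cxcl12, Cxcl16, Ccl2 and Ccl4 had SDs of 0.103 to 0.144, at the 29.4 to 62.9 percentile.

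**Figure D1:**
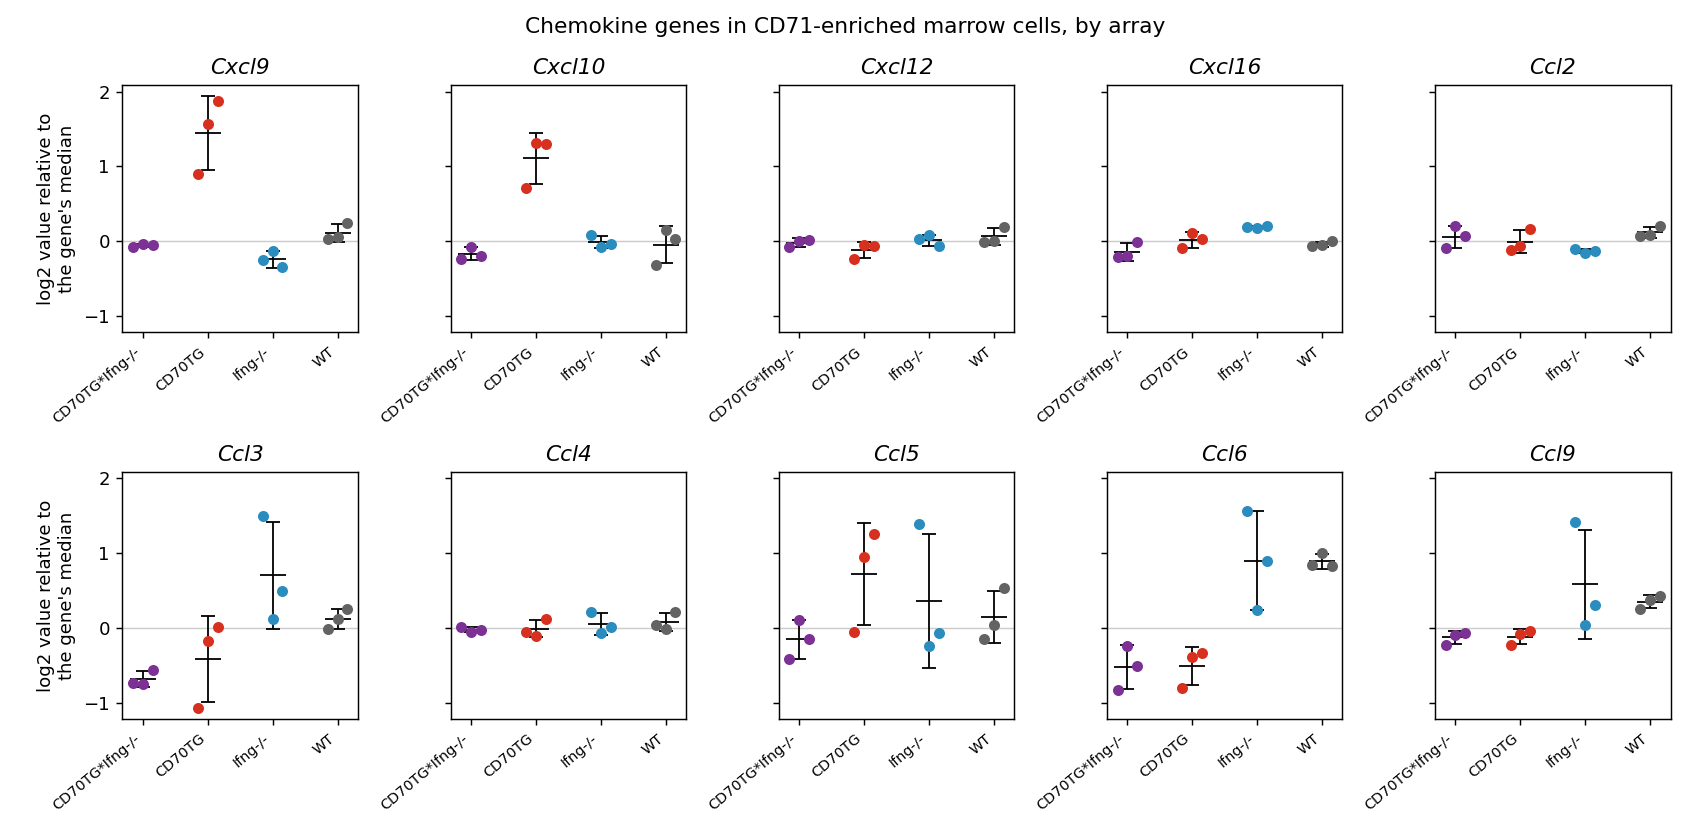
Log2 value relative to the gene's median (y axis) of the 10 chemokine genes in each of the 12 arrays, by genotype. Points are arrays, the long bar is the mean and the whiskers the SD of 3 arrays; Cxcl9 and Cxcl10 are high in the 3 CD70TG arrays, and Ccl6 is low in all 6 transgenic arrays.

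Cxcl9 and Cxcl10, the CXCR3 ligands, rose in CD70TG against WT mice. Cxcl9 stood at 0.91, 1.56 and 1.87 in the CD70TG arrays, against 0.03, 0.06 and 0.25 in the WT arrays. The groups did not overlap, and even the lowest CD70TG array was well above the highest WT array. The change was 1.33 ± 0.17 log2 (SE, 95% interval 0.97 to 1.70), a 2.52-fold increase, with an adjusted p of 0.000326. Cxcl10 stood at 0.712, 1.313 and 1.299 in the CD70TG arrays, against -0.31, 0.16 and 0.03 in the WT arrays, again without overlap. Its change was 1.15 ± 0.15 log2 (SE), a 2.22-fold increase (adjusted p = 0.000321). CD70TG replicate 1 was the lowest of its group for both genes. In a bulk sample, fewer cells of a type and less RNA per cell cannot be told apart, and the same holds for gains.

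Without interferon-γ the transgene was not accompanied by a called change of either gene. Cxcl9 stood at -0.07, -0.03 and -0.05 in CD70TG*Ifng-/- arrays, against -0.26, -0.12 and -0.35 in Ifng-/- arrays. The 3 transgenic arrays were all higher, by a mean of 0.19 ± 0.17 log2 (SE, 95% interval -0.17 to 0.56), which missed the threshold (adjusted p = 0.688). Cxcl10 stood at -0.23, -0.07 and -0.20 in CD70TG*Ifng-/- arrays, against 0.09, -0.08 and -0.03 in Ifng-/- arrays. These groups overlapped, and the difference was -0.16 ± 0.15 log2 (95% interval -0.47 to 0.15, adjusted p = 0.699). Set directly against the CD70TG arrays, the CD70TG*Ifng-/- arrays were lower by the test for both genes: Cxcl9 fell by 1.497 ± 0.17 log2 (2.82-fold lower, adjusted p = 0.00026) and Cxcl10 fell by 1.27 ± 0.15 log2 (2.42-fold lower, adjusted p = 0.000262).

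The test of the difference between the transgene effects, the interaction, is the transgene effect with interferon-γ minus that without it. For Cxcl10 it was 1.31 ± 0.21 log2 (SE, 95% interval 0.87 to 1.75) with an adjusted p of 0.00854, and it passed in all 20 alternative settings, with adjusted p-values of 0.000277 to 0.0347. For Cxcl9 it was 1.14 ± 0.24 log2 (95% interval 0.63 to 1.66, adjusted p = 0.0326) and passed in 14 of 20 alternative settings, with adjusted p-values of 0.000231 to 0.102. The call was lost without WT replicate 1 (adjusted p = 0.102), without CD70TG replicate 2 (0.0858), without Ifng-/- replicate 2 (0.0548) or 3 (0.0532), and without CD70TG*Ifng-/- replicate 2 (0.0837) or 3 (0.0862). Its value stayed between 0.77 and 1.41 log2 over the 20 settings.

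Loss of interferon-γ without the transgene gave no call for either gene. Cxcl9 was -0.35 ± 0.17 log2 (SE) in Ifng-/- against WT mice (adjusted p = 0.368), although its groups did not overlap, with all 3 Ifng-/- arrays lower. Cxcl10 differed by 0.04 ± 0.15 log2 (95% interval -0.28 to 0.35, adjusted p = 0.927) and its groups overlapped. In order of the group means, Cxcl9 was highest in CD70TG (1.45 ± 0.49, SD, n = 3), followed by WT (0.11 ± 0.12), CD70TG*Ifng-/- (-0.05 ± 0.02) and Ifng-/- (-0.24 ± 0.11). For Cxcl10 the CD70TG mean was 1.11 ± 0.34, and the means of Ifng-/- (-0.01 ± 0.08), WT (-0.04 ± 0.24) and CD70TG*Ifng-/- (-0.17 ± 0.09) lay within 1 SD of WT of each other.

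Interferon-γ response genes were read from a list of 13, of which 10 were measured. In CD70TG against WT mice 6 of the 10 rose and 0 fell (8.23% and 2.7% of all genes), with a median of 0.76 log2 against -0.02 over all genes. The GTPases Iigp1 (3.15 ± 0.24 log2), Gbp7 (1.66 ± 0.19), Gbp3 (1.57 ± 0.18) and Gbp5 (0.80 ± 0.14) had the smallest p-values of the list. Of the 10, 0 rose and 2 fell in CD70TG*Ifng-/- against Ifng-/- mice (0.156% and 2.35% of all genes), with a median of -0.27. That count of falls was 0 without Ifng-/- replicate 1 or without any of the 3 CD70TG*Ifng-/- arrays, and 1 without WT replicate 3 or CD70TG replicate 2. It was 1 with a robust prior, with the replicate number as a block or with those groups alone, and 4 with array weights. In CD70TG*Ifng-/- against CD70TG mice 6 of the 10 fell and 0 rose (0.988% and 0.426% of all genes), with a median of -1.07. In the interaction 6 were positive and 0 negative (1.61% and 0.281% of all genes), with a median of 1.04. The mean of the 10 genes by array was 0.56, 0.98 and 1.12 in CD70TG, against -0.12, 0.07 and 0.23 in WT, so that CD70TG replicate 1 was again the lowest transgenic array.

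Markers of the cells that CXCR3 attracts did not rise by the test. Of 7 measured T cell markers 0 rose and 2 fell in CD70TG against WT mice (8.23% and 2.7% of all genes). Of 10 markers of cytotoxic and NK cells 0 rose and 0 fell. The granule gene Nkg7 was 0.85 ± 0.27 log2 higher with an adjusted p of 0.0597, and its groups did not overlap. The NK cell receptor Klrb1c was -0.13 ± 0.08 log2 (adjusted p = 0.304), with every CD70TG array lower, and the median of the 10 markers was -0.04. Cxcr3 itself was -0.24 ± 0.11 log2 (adjusted p = 0.172), with every CD70TG array lower than every WT array. The part of these cells in the chemokine values was not tested.

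Ccl6 fell in transgenic mice with and without interferon-γ. It stood at -0.80, -0.39 and -0.34 in the CD70TG arrays, against 0.84, 1.01 and 0.82 in the WT arrays. The groups lay far apart, with a change of -1.40 ± 0.24 log2 (SE, 95% interval -1.92 to -0.88), which is 2.63-fold lower (adjusted p = 0.00317). In the absence of interferon-γ it stood at -0.83, -0.24 and -0.50 in the CD70TG*Ifng-/- arrays, against 1.56, 0.24 and 0.90 in the Ifng-/- arrays. The groups did not overlap here either, although the Ifng-/- arrays were spread widely. The change was -1.43 ± 0.24 log2 (95% interval -1.95 to -0.91), which is 2.69-fold lower (adjusted p = 0.00349). Both calls held in all 21 alternative settings, with adjusted p-values of 3.94e-05 to 0.0174 and of 2.99e-05 to 0.0308.

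No difference in the transgene effect on Ccl6 between the Ifng genotypes was detected. The interaction was 0.03 ± 0.34 log2 with a 95% interval of -0.71 to 0.77 (adjusted p = 0.967), and a difference of any size within that interval could go unseen here. Ccl6 differed by -0.02 ± 0.24 log2 in CD70TG*Ifng-/- against CD70TG mice and by 0.01 ± 0.24 in Ifng-/- against WT mice, with an adjusted p of 0.989 in both.

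Ccl9, the neighbour of Ccl6 and a CCR1 ligand as well, was lower in all transgenic arrays but missed the threshold. It stood at -0.23, -0.07 and -0.04 in CD70TG, against 0.26, 0.37 and 0.44 in WT arrays, a difference of -0.47 ± 0.24 log2 (adjusted p = 0.221). Without interferon-γ it stood at -0.22, -0.09 and -0.06 in CD70TG*Ifng-/- arrays, against 1.41, 0.04 and 0.31 in Ifng-/- arrays, a difference of -0.71 ± 0.24 log2 (adjusted p = 0.186). Neither pair of groups overlapped, and Ifng-/- replicate 1 was the highest of the 12 arrays by a wide margin. Leaving that array out gave -0.47 ± 0.09 log2 and an adjusted p of 0.00435 in CD70TG against WT mice, and -0.30 ± 0.10 log2 and an adjusted p of 0.289 in CD70TG*Ifng-/- against Ifng-/- mice. Over 21 alternative settings the adjusted p ranged from 0.00435 to 0.475 in the first comparison and from 0.0146 to 0.398 in the second, and each passed in 3. The error pools the 4 groups, whose SDs were 0.10 in CD70TG, 0.09 in WT, 0.73 in Ifng-/- and 0.08 in CD70TG*Ifng-/- arrays. With the CD70TG and WT arrays alone the first difference was -0.47 ± 0.085 log2 (adjusted p = 0.00585).

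Ccl3, an inflammatory chemokine that binds CCR1, fell in transgenic mice without interferon-γ. It stood at -0.73, -0.75 and -0.55 in CD70TG*Ifng-/- arrays, against 1.49, 0.12 and 0.50 in Ifng-/- arrays, with no overlap. The change was -1.38 ± 0.29 log2 (SE), which is 2.60-fold lower (adjusted p = 0.0179). The call passed in 17 of 21 alternative settings, with adjusted p-values of 0.00182 to 0.118, and was lost without CD70TG*Ifng-/- replicate 1 (0.0693), 2 (0.0856) or 3 (0.0595) and with a robust prior (0.118). Without Ifng-/- replicate 1, the highest array, the change was -0.99 ± 0.23 log2 (adjusted p = 0.0392). With interferon-γ intact, Ccl3 stood at -1.07, -0.18 and 0.01 in CD70TG, against -0.01, 0.13 and 0.26 in WT arrays. The ranges overlapped through the highest CD70TG array, and the difference was -0.53 ± 0.29 log2 (adjusted p = 0.264). It was -0.21 log2 without CD70TG replicate 1 (adjusted p = 0.764) and -0.75 without CD70TG replicate 3. The interaction was 0.85 ± 0.41 log2 (adjusted p = 0.263), and 0.45 ± 0.30 without Ifng-/- replicate 1 (adjusted p = 0.394), so a difference between the Ifng genotypes was not shown.

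Ccl4 and Ccl5, inflammatory CC chemokines, gave no call in any comparison. Ccl4 stayed between -0.10 and 0.22 over the 12 arrays, and its 4 differences between groups lay between -0.09 and -0.01 log2 (adjusted p-values of 0.57 to 0.977). Ccl5 stood at -0.05, 0.95 and 1.26 in CD70TG, against -0.14, 0.05 and 0.54 in WT arrays. Without interferon-γ it stood at -0.41, 0.10 and -0.14 in CD70TG*Ifng-/- arrays, against 1.39, -0.24 and -0.06 in Ifng-/- arrays. Both pairs overlapped: CD70TG replicate 1 lay among the WT arrays, and Ifng-/- replicate 1 was the highest of all 12. The difference in CD70TG against WT mice was 0.57 ± 0.37 log2 (adjusted p = 0.355). In CD70TG*Ifng-/- against CD70TG mice it was -0.87 ± 0.37 log2 (adjusted p = 0.396). The interaction was 1.09 ± 0.53 log2 (95% interval -0.04 to 2.22, adjusted p = 0.262) and was 0.58 ± 0.38 without Ifng-/- replicate 1 (adjusted p = 0.39).

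Cxcl16, the ligand of CXCR6, fell slightly in transgenic mice without interferon-γ. It stood at -0.22, -0.20 and -0.003 in CD70TG*Ifng-/- arrays, against 0.19, 0.18 and 0.20 in Ifng-/- arrays. The 3 Ifng-/- arrays lay close together and above every array of the other groups, and the change was -0.33 ± 0.08 log2 (SE), which is 1.26-fold lower (adjusted p = 0.0359). The call passed in 11 of 21 alternative settings, with adjusted p-values of 0.0172 to 0.158. It was lost without WT replicate 1, 2 or 3 (0.0501 to 0.0504), without Ifng-/- replicate 1 (0.118) or 3 (0.112), and without CD70TG*Ifng-/- replicate 1 (0.141) or 2 (0.158). In CD70TG arrays it stood at -0.09, 0.12 and 0.04, against -0.07, -0.05 and 0.003 in WT arrays, groups that overlapped (0.06 ± 0.08 log2, adjusted p = 0.668). Ifng-/- arrays were higher than WT arrays without overlap, by 0.23 ± 0.08 log2 (adjusted p = 0.263). The interaction was 0.39 ± 0.11 log2 (adjusted p = 0.0829).

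Ccl2 and Cxcl12 gave no call. Ccl2, the monocyte attractant, stood at -0.12, -0.07 and 0.17 in CD70TG, against 0.07, 0.08 and 0.21 in WT arrays. Without interferon-γ it stood at -0.10, 0.21 and 0.07 in CD70TG*Ifng-/- arrays, against -0.10, -0.16 and -0.13 in Ifng-/- arrays. The lowest CD70TG*Ifng-/- array, at -0.095, lay barely above the highest Ifng-/- array, at -0.096, and the mean difference was 0.19 ± 0.09 log2 (adjusted p = 0.437). The Ifng-/- arrays lay below the WT arrays without overlap (-0.25 ± 0.09 log2, adjusted p = 0.289), and they overlapped the CD70TG arrays. Cxcl12 stood at -0.23, -0.05 and -0.06 in CD70TG, against -0.01, 0.01 and 0.20 in WT arrays. These groups did not overlap, but the difference of -0.18 ± 0.08 log2 missed the threshold (adjusted p = 0.181). Cxcl12 differed by -0.03 ± 0.08 log2 in CD70TG*Ifng-/- against Ifng-/- mice (95% interval -0.20 to 0.15), and the groups overlapped.

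**Figure D2:**
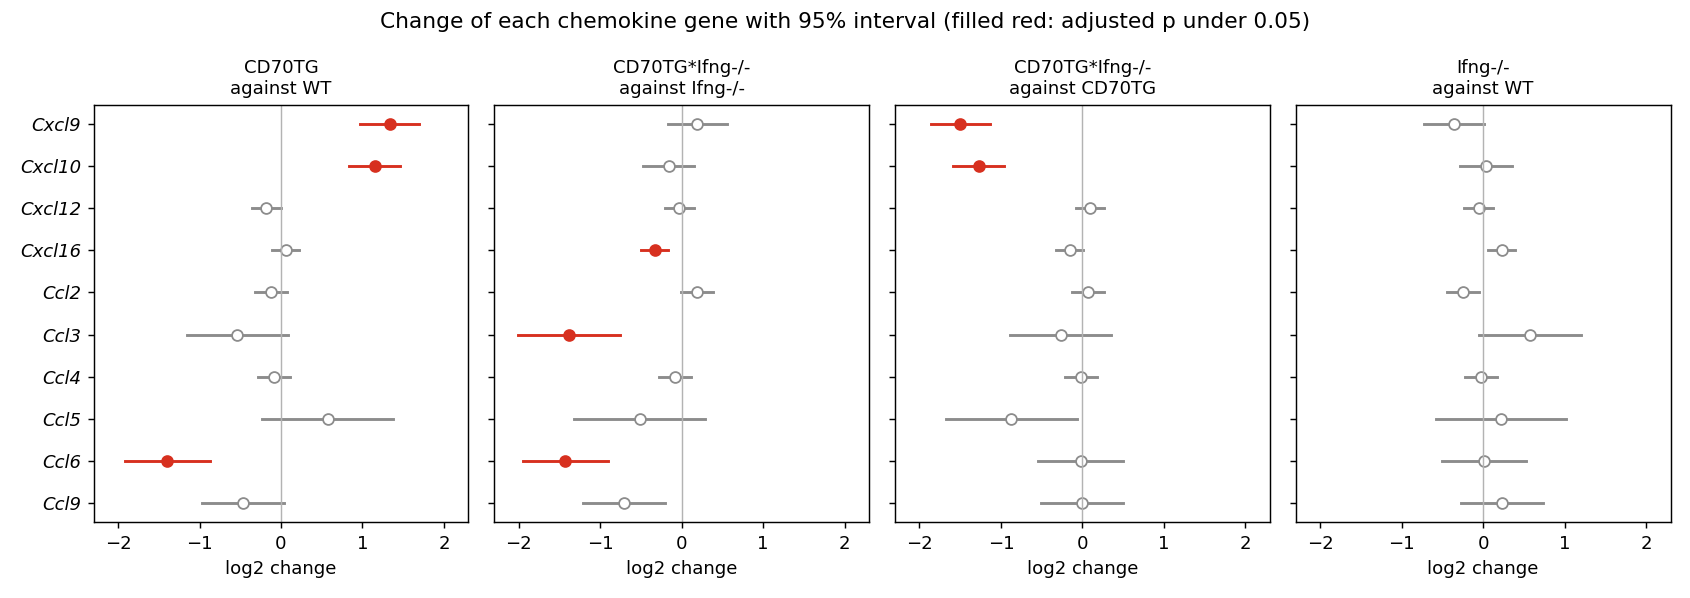
Log2 change (x axis) of the 10 chemokine genes in 4 comparisons, with 95% limma intervals. Filled red points had an adjusted p under 0.05: Cxcl9, Cxcl10 and Ccl6 in CD70TG against WT, Cxcl16, Ccl3 and Ccl6 in CD70TG*Ifng-/- against Ifng-/-, Cxcl9 and Cxcl10 in CD70TG*Ifng-/- against CD70TG, and none in Ifng-/- against WT.

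Counted over the set, 3 of 10 genes were called in CD70TG against WT mice, where 10.9% of all genes were called, 2 of them higher (8.23% of all genes) and 1 lower (2.7%). In CD70TG*Ifng-/- against Ifng-/- mice 3 of 10 were called, all lower, where 2.5% of all genes were called and 2.35% were called lower. That count lay between 1 and 4 when single arrays were left out, and was 1 without CD70TG*Ifng-/- replicate 1 or 2. In CD70TG*Ifng-/- against CD70TG mice 2 of 10 were called, both lower, against 1.41% of all genes called, 0.426% higher and 0.988% lower. In the interaction 2 of 10 were called, both positive, against 1.89% of all genes called, 1.61% positive and 0.281% negative, and the count was 1 without each of the 6 arrays named for Cxcl9. In Ifng-/- against WT mice 0 of 10 were called by limma, where 0.00502% of all genes were called, which is the gene Pawr alone. At an unadjusted p under 0.05, 2759 genes passed there.

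Groups that did not overlap were seen for 5 of 10 genes in CD70TG against WT mice, where 31.1% of all genes did so. They were seen for 6 of 10 in CD70TG*Ifng-/- against Ifng-/- mice, where 16.4% of all genes did so (9.32% higher and 7.09% lower), for 3 of 10 in Ifng-/- against WT mice (18.6% of all genes, 9.43% higher and 9.17% lower) and for 2 of 10 in CD70TG*Ifng-/- against CD70TG mice (17.6%, 9.31% higher and 8.27% lower). The median change of the 10 genes was -0.11 log2 in CD70TG against WT mice, against -0.02 for all genes, and -0.25 in CD70TG*Ifng-/- against Ifng-/- mice, against 0.04 for all genes. The comparisons share arrays, so their counts are not independent of each other.

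Other chemokine genes were read from a list of 30, of which 26 were measured. In CD70TG against WT mice 1 of the 26 rose and 0 fell (8.23% and 2.7% of all genes). This was Ccl8, which in the mouse is a ligand of CCR8, at 0.34, 0.54 and 0.66 in CD70TG, against -0.02, 0.16 and 0.08 in WT arrays. All CD70TG arrays were higher, by 0.44 ± 0.09 log2 (SE), a 1.36-fold increase (adjusted p = 0.00701). Ccl8 stood at -0.25, -0.25 and -0.11 in CD70TG*Ifng-/- arrays, which is 0.71 ± 0.09 log2 below the CD70TG arrays (adjusted p = 0.00047), and against Ifng-/- arrays (-0.12, -0.08 and 0.02) it gave no call (adjusted p = 0.551). The interaction for Ccl8 was 0.58 log2 (adjusted p = 0.0335) and passed in 12 of 19 alternative settings. The call was lost without WT replicate 1 (0.105) or 3 (0.0614), CD70TG replicate 2 (0.086) or 3 (0.0596), Ifng-/- replicate 3 (0.0685), and CD70TG*Ifng-/- replicate 2 (0.0982) or 3 (0.0649).

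Of the 26, 0 rose and 1 fell in CD70TG*Ifng-/- against Ifng-/- mice (0.156% and 2.35% of all genes). This was Cxcl2, a neutrophil attractant that binds CXCR2, at -0.08, -0.02 and -0.16 in CD70TG*Ifng-/- arrays, against 0.81, 0.12 and 0.47 in Ifng-/- arrays. The groups did not overlap, Ifng-/- replicate 1 was again the highest, and the change was -0.55 ± 0.13 log2 (adjusted p = 0.0298). The call was lost without Ifng-/- replicate 1 (-0.38 log2, adjusted p = 0.102) or 3 (0.0967) and without CD70TG*Ifng-/- replicate 1 (0.0878), 2 (0.0757) or 3 (0.143), and with those groups alone (0.14). Its adjusted p ranged from 0.000271 to 0.143 over 20 alternative settings. With interferon-γ intact Cxcl2 was -0.34 ± 0.13 log2 in CD70TG against WT mice, with no overlap and an adjusted p of 0.1. That fall passed in 5 of 20 settings, without Ifng-/- replicate 1 (0.0243) or 2 (0.0209), after quantile normalization (0.0327), with array weights (0.017) and with those groups alone (0.0167). In these settings 1 of the 26 fell in CD70TG against WT mice, beside 1 that rose, or 2 with array weights.

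Of the listed chemokine receptor genes, 23 were measured. In CD70TG against WT mice 4 of the 23 fell and 0 rose (2.7% and 8.23% of all genes). In CD70TG*Ifng-/- against Ifng-/- mice 1 fell and 0 rose (2.35% and 0.156% of all genes). Ccr3, the eotaxin receptor of eosinophils and basophils, stood at -1.16, -1.65 and -1.89 in CD70TG, against 1.38, 2.06 and 1.16 in WT arrays. It stood at -1.65, -1.54 and -1.41 in CD70TG*Ifng-/- arrays, against 1.96, 1.79 and 2.00 in Ifng-/- arrays. The 6 transgenic arrays all lay far below the 6 arrays without the transgene, with changes of -3.10 ± 0.20 log2 (adjusted p = 1.65e-06) and -3.45 ± 0.20 log2 (adjusted p = 1.73e-07). Both Ccr3 calls held in all 20 alternative settings. Of 8 measured markers of eosinophils, basophils and mast cells 3 fell and 0 rose in CD70TG against WT mice (median -0.59 log2), and 1 fell and 0 rose in CD70TG*Ifng-/- against Ifng-/- mice (median -0.71). Prg2, which encodes the major basic protein of eosinophils, was -2.02 ± 0.39 log2 (adjusted p = 0.00569) and -1.15 ± 0.39 log2 (adjusted p = 0.202, groups overlapping) in the same comparisons. It was 1.34 ± 0.39 log2 in CD70TG*Ifng-/- against CD70TG mice (adjusted p = 0.14). The part of these cells in the Ccr3 values was not tested.

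Cxcr2, the neutrophil receptor of Cxcl2, fell in CD70TG against WT mice by 1.45 ± 0.35 log2 (adjusted p = 0.0195), and was -1.40 ± 0.35 log2 in CD70TG*Ifng-/- against Ifng-/- mice (adjusted p = 0.0538). The first call was lost without WT replicate 1 (0.0543), 2 (0.061) or 3 (0.0502), without CD70TG replicate 1 (0.0693) and with a robust prior (0.0761), with adjusted p-values of 0.000317 to 0.0761 over 20 settings. The second was -1.92 log2 without Ifng-/- replicate 2 (adjusted p = 0.000311) and -0.87 log2 without Ifng-/- replicate 1 (0.113), and it passed after quantile normalization (0.0304) and with array weights (0.000785). Ccr9, the receptor of Ccl25, fell by 0.42 ± 0.10 log2 (adjusted p = 0.0218), a call lost without WT replicate 1 (0.0903) or 2 (0.0556) and without CD70TG replicate 1 (0.0719) or 2 (0.0895). Ccr1l1, a gene like Ccr1, fell by 0.41 ± 0.13 log2 (adjusted p = 0.0488), a call that passed in 11 of 20 settings (adjusted p-values of 0.00356 to 0.166) and was lost without any 1 of the WT arrays, without CD70TG replicate 1 or 2, without CD70TG*Ifng-/- replicate 1 or 3, with the replicate block (0.0615) and after centring within level classes (0.0566). The count of receptors called in CD70TG against WT mice was 1 without WT replicate 1 or 2 or CD70TG replicate 1, and 2 without WT replicate 3 or CD70TG replicate 2. It was 10 with array weights, 9 lower and 1 higher. The count in CD70TG*Ifng-/- against Ifng-/- mice was 4 without Ifng-/- replicate 2, 3 lower and 1 higher. It was 5 with array weights, 4 lower and 1 higher, and 2 after quantile normalization, both lower.

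Ccr1, Ccr2, Cxcr3, Cxcr4, Cxcr6 and Ackr3, receptors of chemokines of the set, gave no call. In CD70TG against WT mice Ccr1, which binds Ccl3, Ccl5, Ccl6 and Ccl9, was -0.53 ± 0.23 log2 (adjusted p = 0.166), with all CD70TG arrays lower. In CD70TG*Ifng-/- against Ifng-/- mice it was -0.76 ± 0.23 log2 (adjusted p = 0.145), with groups that overlapped. Ccr2, Cxcr4, Cxcr6 and Ackr3, which bind Ccl2, Cxcl12, Cxcl16 and again Cxcl12, lay between -0.20 and 0.04 log2 in CD70TG against WT mice, with adjusted p-values of 0.731 to 0.923.

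**Figure D3:**
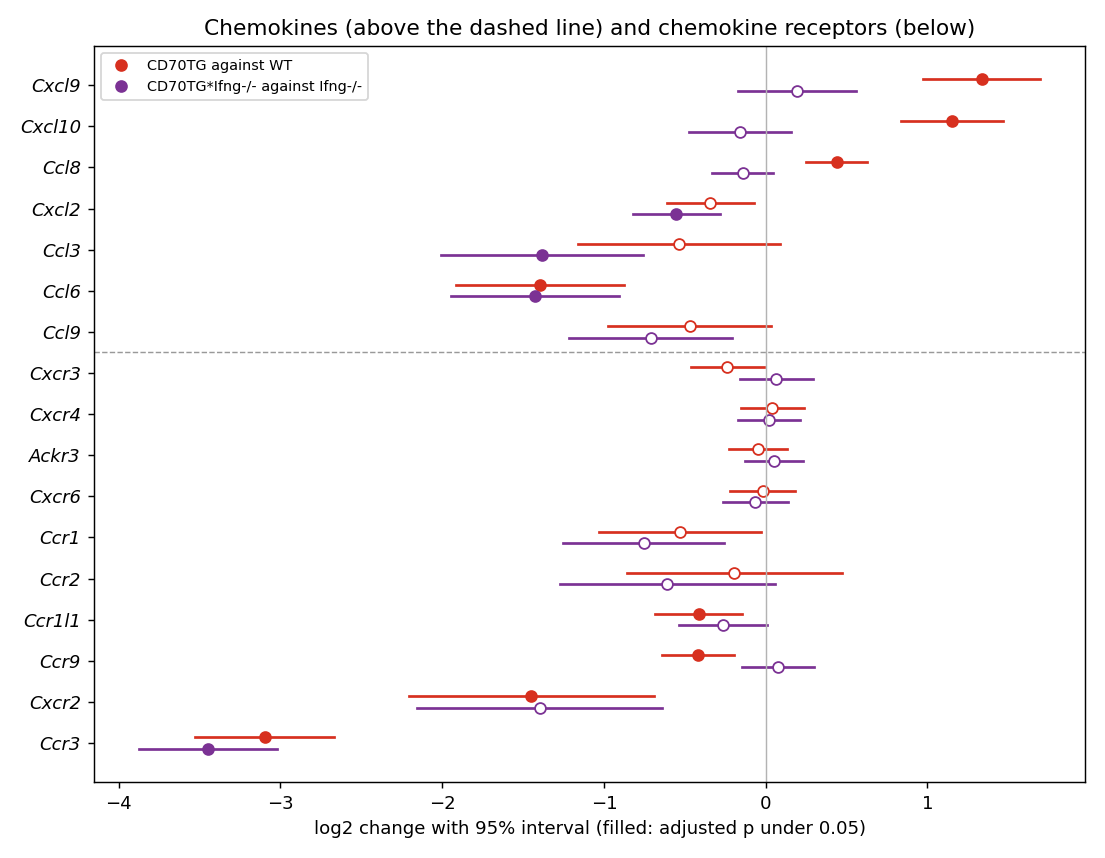
Log2 change with 95% limma interval (x axis) of chemokine genes (above the dashed line) and chemokine receptor genes (below it) in CD70TG against WT (red) and CD70TG*Ifng-/- against Ifng-/- (purple). Filled points had an adjusted p under 0.05; Ccr3 lies near -3 in both comparisons, Ccl6 near -1.4 in both, and Cxcl9, Cxcl10 and Ccl8 are filled in CD70TG against WT only.

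The myeloid chemokine genes were read beside the markers of the cells that could make them. Of 15 macrophage markers 14 fell and 0 rose in both transgene comparisons, with medians of -1.66 log2 in CD70TG against WT mice and -2.66 in CD70TG*Ifng-/- against Ifng-/- mice. Both counts stayed at 14 in the 20 alternative settings that kept the list. The mean of these markers by array lay between -0.92 and -0.65 in CD70TG, against 0.66 to 1.28 in WT arrays, and between -1.25 and -1.17 in CD70TG*Ifng-/-, against 1.025 to 1.411 in Ifng-/- arrays. Vcam1, an adhesion molecule of marrow macrophages, changed by -2.78 and -4.21 log2 in the same comparisons, and C1qc, a complement subunit, by -1.88 and -3.12. Of 7 monocyte markers 2 fell in CD70TG against WT mice and 3 in CD70TG*Ifng-/- against Ifng-/- mice, and 0 rose. In CD70TG*Ifng-/- against CD70TG mice 3 macrophage markers and 1 monocyte marker (Ctss) fell, and 0 of either list rose. In the interaction 6 macrophage markers and 1 monocyte marker (Ctss) were positive and 0 negative. The macrophage counts ranged from 0 to 8 and from 0 to 11 in these last tests over the alternative settings. Of 12 markers of neutrophils and their precursors 4 fell and 1 rose in CD70TG against WT mice and 0 passed the test in CD70TG*Ifng-/- against Ifng-/- mice. The first of these neutrophil counts ranged from 0 to 11 in total over the alternative settings, at 0 without WT replicate 1 or 2 and 11 without Ifng-/- replicate 1 or 2. The second was 9 lower without Ifng-/- replicate 2, 6 lower with array weights and 1 lower after quantile normalization. Of 7 B cell markers 6 fell in CD70TG against WT mice (median -0.86 log2), 1 fell in CD70TG*Ifng-/- against Ifng-/- mice (median -0.33) and 2 rose in CD70TG*Ifng-/- against CD70TG mice. Of 8 markers of red cell precursors 1 fell in CD70TG against WT mice (Alas2) and 0 in CD70TG*Ifng-/- against Ifng-/- mice. Over all genes 2.7% fell and 8.23% rose in CD70TG against WT mice, and 2.35% fell and 0.156% rose in CD70TG*Ifng-/- against Ifng-/- mice. In CD70TG*Ifng-/- against CD70TG mice 0.988% of all genes fell and 0.426% rose. In the interaction 1.61% of all genes were positive and 0.281% negative.

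Ifng-/- replicate 1 was the highest of the 12 arrays for Ccl3, Ccl5, Ccl6 and Ccl9. It was also the highest array in the mean of the markers of neutrophils (1.66, against -0.61 and 0.45 in the other two Ifng-/- arrays), of monocytes (1.10, against -0.21 and 0.22), of macrophages (1.411, against 1.025 and 1.253) and of eosinophils, basophils and mast cells (1.14, against -0.03 and 0.72). The same held for the means of T cell (0.33), dendritic cell (0.22) and megakaryocyte (0.20) markers and of the chemokine receptors (0.28), whereas for red cell precursors it was the lowest Ifng-/- array (-0.11, against 0.07 and -0.02). It was not the highest array for B cells (0.37, against 0.55 in WT replicate 2) or cytotoxic and NK cells (0.03, against 0.23 in CD70TG replicate 3). Nor was it for stroma (0.04), the other chemokines (-0.003) or the interferon-γ response genes (0.22). Without this array Ccl6 was -1.10 ± 0.19 log2 in CD70TG*Ifng-/- against Ifng-/- mice (adjusted p = 0.00466). CD70TG replicate 1, the lowest CD70TG array for Cxcl9, Cxcl10, Ccl3, Ccl5, Ccl6 and Ccl9, was also the lowest of its group in the means of macrophage, monocyte, neutrophil and eosinophil markers. It was the lowest as well for T cells (-0.19), cytotoxic and NK cells (-0.03), dendritic cells (-0.15), megakaryocytes (-0.24), stroma (-0.12) and the chemokine receptors (-0.17), and the highest for red cell precursors (0.01, against -0.01 and -0.20). For B cells it was not the lowest (-0.619, against -0.624 in CD70TG replicate 2). The part of these cells in the chemokine values was not tested.

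**Figure D4:**
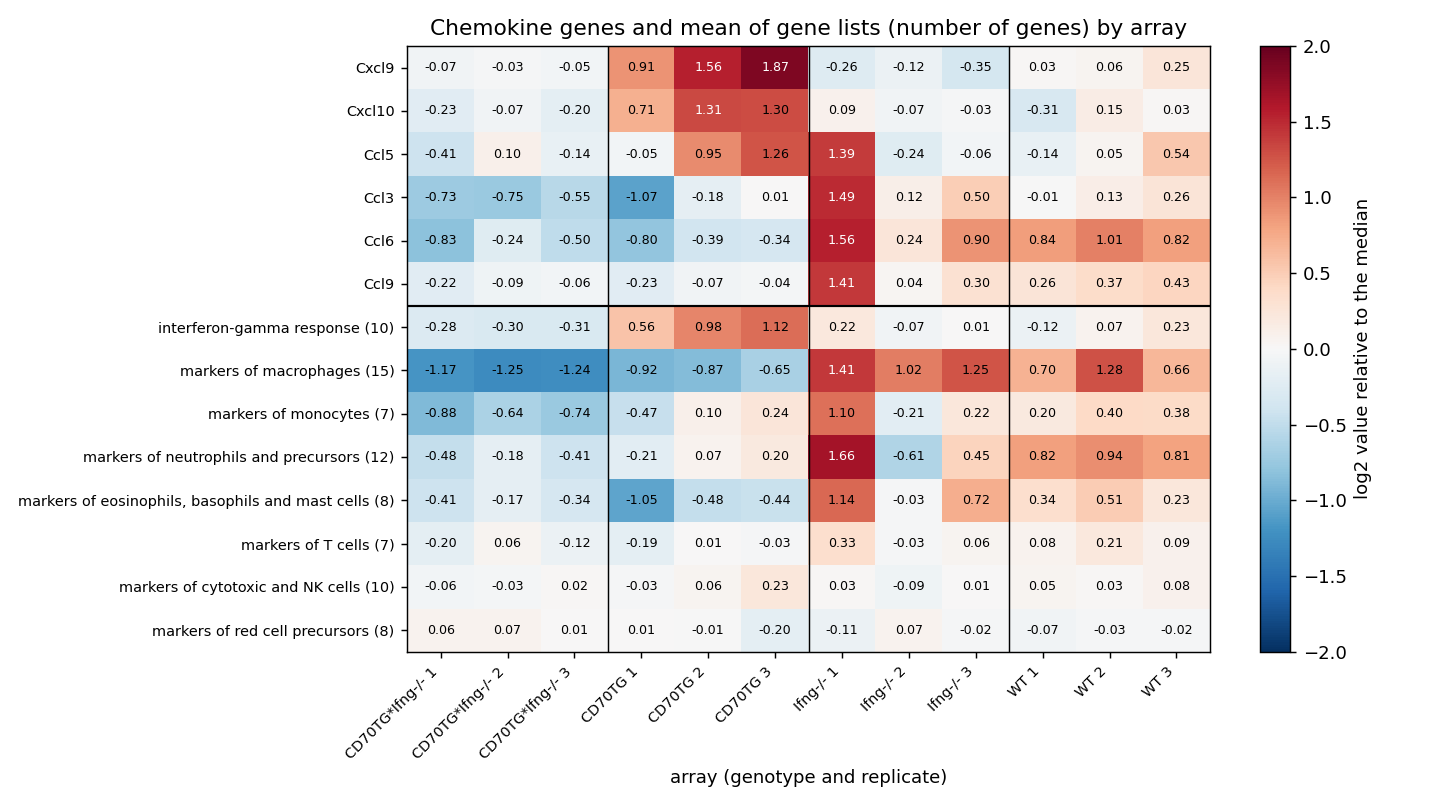
Log2 values relative to the gene's median (colour and number in each cell) for 6 chemokine genes above the thick line and for the means of gene lists below it (number of genes in brackets), in each of the 12 arrays (x axis). Ifng-/- 1 has the highest value of Ccl3, Ccl5, Ccl6 and Ccl9 and of the neutrophil, monocyte, macrophage and eosinophil lists, and the interferon-γ list is high in the 3 CD70TG arrays.

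The genes most like each called chemokine were found by the mean absolute difference of the log2 values over the 12 arrays, among 18704 genes with an official symbol. For Cxcl9 they were Psmb10 (0.17), Zbp1 (0.19) and Gbp3 (0.20), where the median of all genes was 0.49, and the nearest chemokine of the set was Cxcl10 at 0.23, which ranked 8. For Cxcl10 they were Psmb10 (0.10), Zbp1 (0.13) and Csf2rb2 (0.13), against a median of 0.40, and Cxcl9 ranked 31. For Ccl6 they were Tcn2 (0.14), Plbd1 (0.17) and Itgb2 (0.18), against a median of 0.71, and the nearest of the set was Ccl3 at 0.37, which ranked 127. For Ccl3 they were Rassf4 (0.15), Ctsh (0.15) and Lpcat2 (0.17), against a median of 0.51, and the nearest of the set was Ccl9 at 0.31, which ranked 149. For Cxcl16 they were Gpr160 (0.05), Flcn (0.06) and Fchsd2 (0.06), against a median of 0.16, and the nearest of the set was Ccl4 at 0.13, which ranked 3305. The 12 arrays share their groups, so these values describe likeness over 4 genotypes and carry no test.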

How the data were processed

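Total RNA of CD71-enriched bone marrow cells from 12 mice was labelled with biotin and hybridised to Affymetrix whole-transcript arrays, 1 per mouse. The deposited values are log2 intensities that the authors made with RMA, per the submitters' processing notes, and its version is not given in the sources used here. The median of every probe set over the 12 arrays is 0, so the deposited log2 values hold no absolute level, and the cause of this centring is unknown. No label states the log base, which is taken as that of RMA output, with larger values read as more RNA. Of 28815 probe sets, 21780 had 1 gene symbol in GEO's platform annotation, which can be old, 1605 several and 5430 none. Probe sets with 1 symbol were averaged per gene (998 of 19935 genes had several), and no gene was removed. RefSeq tables (GRCm38.p6) gave chromosomes and promoter windows.

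The rounding of the deposited numbers leaves a step size from which a level over or under 8 was read, with a tolerance of 0.15 of a step from values of 0.001 to 1. The higher class held 45 of 55 genes of ribosomal proteins but 1 of 1015 genes of olfactory receptors, and 10 probe sets stayed unresolved.

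A model with 4 group means was fitted to all 12 arrays with limma 3.58.1 in R 4.3.3 (lmFit, eBayes; residual degrees of freedom 8, prior 6.23). Tests were two-sided with Benjamini-Hochberg adjustment over 19935 genes and a threshold of 0.05. Errors of changes are limma's standard errors, and errors of means are SDs of 3 arrays. In simulated data of 19935 genes for CD70TG against WT, the model recovered 64 of 100 genes changed by 0.5 log2 and 99 of 100 changed by 1, with 5 false calls. The simulated noise was independent between genes, with no deviation shared by the genes of an array, and the changed genes were drawn at random. These rates are thus not those of genes with a wide spread, such as Ccl3 and Ccl5, whose changes had SEs of 0.29 and 0.37 log2. Precision is limited by having 3 arrays in each group.

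The 10 genes, the lists of other chemokines, receptors, interferon-γ response genes and cell markers, and the rule for named genes were chosen with earlier results of these data known. The rule names the 10 genes, called members of the chemokine and receptor lists, receptors of the 10, up to 4 interferon-γ response genes and 2 markers per list with the smallest p, and the 3 genes most like each called chemokine. Alternatives were other scalings of the arrays, 1 probe set per gene, only genes of the higher level class, array weights, a robust prior, the groups of the comparison alone, a replicate block, and each array left out in turn. For the other chemokines, the receptors and the list counts these were added after seeing the data.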

Additional observations from a re-analysis of the deposited data

Results flagged for a closer look

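The transgene effect on Cxcl9 differed between mice with and without interferon-γ. The test of the difference gave 1.14 log2 (limma interaction, adjusted p = 0.0326), from an effect of 1.33 log2 with interferon-γ and of 0.19 log2 without it. All 3 CD70TG arrays lay above all 3 WT arrays, and the call depends on single arrays, as given above.

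The transgene effect on Cxcl10 differed in the same way. The test of the difference gave 1.31 log2 (limma interaction, adjusted p = 0.00854), from an effect of 1.15 log2 with interferon-γ and of -0.16 log2 without it. All 3 CD70TG arrays lay above all 3 WT arrays.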

How the results depend on the processing

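Over 50 changes of the 10 chemokine genes and their alternative settings, 1008 values kept their side of the threshold. Called values among them also kept their direction. Uncalled values among them moved by less than the spread between replicates, and some changed sign. Ccl5 in Ifng-/- against WT mice, for example, went from 0.219 to -0.295 log2 without Ifng-/- replicate 1. Another 20 values lost the call, 10 gained one, 2 uncalled values moved by more than that spread, and 0 reversed a called direction. Some settings could not alter a log2 change, and these are counted as well. Each of the 10 genes had 1 probe set, and arrays outside a comparison of 2 groups entered only its error and adjusted p. Cxcl16 lost its call in CD70TG*Ifng-/- against Ifng-/- mice with genes of the higher level class (0.0505), array weights (0.0527) and the groups of the comparison alone (0.105). Ccl9 was called in CD70TG against WT mice after quantile normalization (0.0239) and with the groups of the comparison alone (0.00585). In CD70TG*Ifng-/- against Ifng-/- mice it was called after quantile normalization (0.0436), with array weights (0.0396) and without Ifng-/- replicate 2 (0.0146). Array weights also gave calls for Ccl5 in CD70TG*Ifng-/- against CD70TG mice (0.012) and for the interactions of Cxcl16 (0.0376) and Ccl2 (0.0365), and centring within level classes for the interaction of Cxcl16 (0.0473). Chemokine genes called numbered 3 to 4 in CD70TG against WT mice, 1 to 4 in CD70TG*Ifng-/- against Ifng-/- mice, 0 in Ifng-/- against WT mice, 2 in CD70TG*Ifng-/- against CD70TG mice and 1 to 2 in the interaction when single arrays were left out, and the interaction had 4 with array weights.

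Over all genes, CD70TG against WT gave 2179 calls, 1154 with genes of the higher level class, 5337 with array weights, and 853 to 2721 with 1 array left out. CD70TG*Ifng-/- against Ifng-/- gave 499 calls, then 80, 1439, and 297 to 868 in the same settings. CD70TG*Ifng-/- against CD70TG gave 282, then 159, 3519, and 136 to 365. Ifng-/- against WT gave 1, then 9, 7, and 1 to 42, with 5 after quantile normalization and 2 with the groups of the comparison alone. The interaction gave 377 calls, 2040 with array weights and 82 to 711 with 1 array left out. The filter tests fewer genes by construction, and for the other settings the cause was not tested. The share of calls that were higher in CD70TG against WT was 75.3%, and 63.2% after quantile normalization and 65.2% after centring within level classes. For the interaction it was 85.1%, and 73.8% after centring within level classes. The filter moved the median change of all genes by more than 0.1 log2, to 0.188 at most, and no scaling did.

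Arrays with the same replicate number in the labels showed no pairing: the correlations of their deviations from the group means lay between -0.40 and 0.31 over 12 pairs, and in 7 of 24 cases an array correlated best with its own number. With the replicate number as a block the interaction gave 128 calls and the other comparisons 1668, 401, 1 and 214, in the order CD70TG against WT, CD70TG*Ifng-/- against Ifng-/-, Ifng-/- against WT and CD70TG*Ifng-/- against CD70TG. No call of the 10 chemokine genes changed with it.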
